A study of Mus musculus with 4 samples.

Results

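The genes of the insulin-like growth factor (IGF) axis were examined in reconstituted ovaries (rOvaries), taking the ligands Igf1 and Igf2, the receptors Igf1r, Igf2r and Insr, the adaptors Irs1 and Irs2, and the binding proteins Igfbp2, Igfbp4 and Igfbp5. These 10 genes were taken by symbol out of the 54021 gene symbols in the count table, and all 10 were counted well enough to be tested.

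IGF1 and IGF2 are secreted growth factors that signal through the tyrosine kinase receptor IGF1R and, less strongly, through the closely related insulin receptor. The activated receptors recruit the adaptors IRS1 and IRS2, which pass the signal to PI3K, Akt and mTOR, and mTOR in turn restrains IRS proteins. In the mouse ovary Igf1 is a product of granulosa cells of growing follicles and strengthens their response to FSH, while secreted binding proteins hold the ligands back until proteases release them.

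RNA was sequenced from 2 groups of rOvaries, with 2 libraries in each. The INK128 group (replicates 1 and 2) came from recipients that drank INK128, an inhibitor of the mTOR kinase in both of its complexes, for which the labels state 0.75 μM per g, and the control group (replicates 1 and 3) from recipients without INK128. The study's methods give the dose differently, as a concentration in the drinking water, which was not reconciled with the labels. All recipients were young adult, ovariectomized G2 Terc-/- females on the C57BL/6 background, that is, second-generation mice lacking telomerase RNA, and in both groups the graft grew beneath the capsule of the kidney after primordial germ cells had been aggregated with gonadal somatic cells from female fetuses of actin-GFP C57BL/6 crosses, and was collected 1 month after transplantation. The recipient mutation was therefore shared by both groups, and the graft itself was of donor origin apart from the host cells that grew into it or were taken with it. The labels do not say whether the libraries of a group came from separate recipients, so the p-values measure the spread between these libraries only.

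The 4 libraries held 19130209 to 23029089 counts, and the 2 controls did not resemble each other. Log2 CPM (read counts of tested genes scaled to library size with TMM factors) correlated at 0.98 between the INK128 libraries and at 0.806 between the controls. Y-linked reads (Ddx3y, Eif2s3y, Kdm5d and Uty) numbered 1021 in control replicate 1 and 2, 0 and 0 in INK128 replicates 1 and 2 and control replicate 3, although the graft was described as female, and 6 Sertoli cell markers summed to 1003 CPM in that library against 92.4 to 200 CPM in the others. In control replicate 3, 12 oocyte markers summed to 30.7 CPM, against 929 to 1330 CPM in the other 3 libraries. The 6 theca and steroidogenic markers summed to 10884 CPM there, against 795 to 5125 CPM. Hsd3b1 (4326 CPM), Cyp11a1 (4142 CPM), Lhcgr and Star were highest in that library, but Insl3 was lowest, at 12.3 CPM. Cyp17a1, at 169 CPM there, lay below both INK128 libraries (364 and 433 CPM) and above control replicate 1 (17.4 CPM). Granulosa cell markers were present in every library, at 3331 to 8353 summed CPM for 9 genes, of which Inha alone held 1726 to 6053 CPM. The sum hides differences between the controls. In control replicates 1 and 3, Amh was at 446 and 5.24 CPM, Amhr2 at 419 and 88.5 CPM, and Fshr at 26.3 and 21.4 CPM. Foxl2, Inha, Inhba, Cyp19a1, Nr5a2 and Hsd17b1 were higher in control replicate 3. Because the controls differed in this way, results of the members are also given without 1 or the other of them where that changed the call or the direction.

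Irs2 had the largest absolute log2 fold change of the members, and the sequence before its start site is shown first, beside that of its paralog Irs1. Irs1 and Irs2 share the 2 motifs marked below, and also the GC box GGGCGG, which is not marked. RefSeq promoters (build GRCm38.p6, the build of the mm10 counts) matched 9 of the 10 genes by symbol, all but Insr, with 13 promoters in all, and the 250 bases before each start were searched on both strands for TGTTTTG, an insulin response element of the kind FOXO factors bind, and for CACGTG, the E-box bound by basic helix-loop-helix factors. TGTTTTG was found before Irs1 and Irs2 (2 of the 13 promoters, and 5.56% of all 32851 promoters of this length). CACGTG was found before Irs1, Irs2, Igf2r and Igfbp2 (4 of the 13 promoters, and 6.02% of all promoters). Both together stood before Irs1 and Irs2 and in 97 of all promoters (0.295%). Capitals mark the matches, and in each gene an E-box is joined to or lies next to an insulin response element.
Irs2, chr8:11008930-11009179, minus strand: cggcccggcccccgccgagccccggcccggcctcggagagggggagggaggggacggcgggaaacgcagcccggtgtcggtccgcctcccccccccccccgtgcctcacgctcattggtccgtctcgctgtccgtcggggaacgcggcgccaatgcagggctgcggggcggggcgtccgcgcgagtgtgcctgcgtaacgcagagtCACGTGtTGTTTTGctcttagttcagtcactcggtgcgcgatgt
Irs1, chr1:82291440-82291689, minus strand: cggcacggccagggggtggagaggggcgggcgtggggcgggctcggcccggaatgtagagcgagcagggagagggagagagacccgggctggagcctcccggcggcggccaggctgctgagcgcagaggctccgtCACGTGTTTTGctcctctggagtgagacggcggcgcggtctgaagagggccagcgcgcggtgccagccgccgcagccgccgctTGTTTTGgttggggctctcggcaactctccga

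Positions are counted from the RefSeq starts (11008929 for Irs2 and 82291439 for Irs1), which lie upstream of the GENCODE gene spans given below. In Irs2 the E-box ended 39 bases before the start and the insulin response element began 37 bases before it. In Irs1 the E-box (115 to 110 bases before the start) shared its last 2 letters with the first insulin response element (111 to 105 bases before), and a second element began 32 bases before the start. The FOXO core TGTTTAC was found in 0 of the 13 promoters (3.17% of all promoters), the GC box GGGCGG in 7 of them, before 6 genes (32.7% of all promoters), and TATAAA in 1, before Igfbp4 (12.4% of all promoters). These matches describe the letters and do not show a bound site.

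None of the 10 members passed the test between INK128 and control libraries. The 2 members with the lowest log2 fold changes were Irs2 and Insr, of which Insr shrank to −0.18 with exon length offsets. Irs2 stood at 9.44 ± 1.78 CPM (SD, n = 2) in INK128 libraries, while the controls held 27.8 ± 13.1 CPM (SD, n = 2), or 2.94-fold more. In bulk tissue, fewer cells of a type and less RNA per cell cannot be told apart. For Insr, the INK128 libraries held 65.1 ± 1.80 CPM (SD, n = 2) and the controls 113 ± 31.0 CPM (SD, n = 2), or 1.73-fold more. Averaged over the 4 libraries, Igf1 and Igfbp4 were per length the most abundant ligand and binding protein among the members, though Igfbp5 exceeded Igfbp4 in control replicate 1. With INK128, Igf1 and Igfbp4 were on average 1.08-fold and 1.11-fold the control level, and for Igf1 the controls lay 3.09-fold apart. With edgeR's quasi-likelihood test (adjusted p below 0.05 and more than 1.5-fold), 0 of the 10 members were called, against 6.37% of the 11758 genes tested, and 2 members, Insr and Irs2, had an unadjusted p below 0.05, against 36.4% of all tested genes. DESeq2, the tool of the study, called the same 2 genes lower, against 15.1% of tested genes lower, 13.6% higher and 28.6% in either direction, and limma voom called 0, also with Insr and Irs2 at an unadjusted p below 0.05. At 2 of 10, the DESeq2 share lies near its background and is not read as a result about the members.

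**Figure D1:**
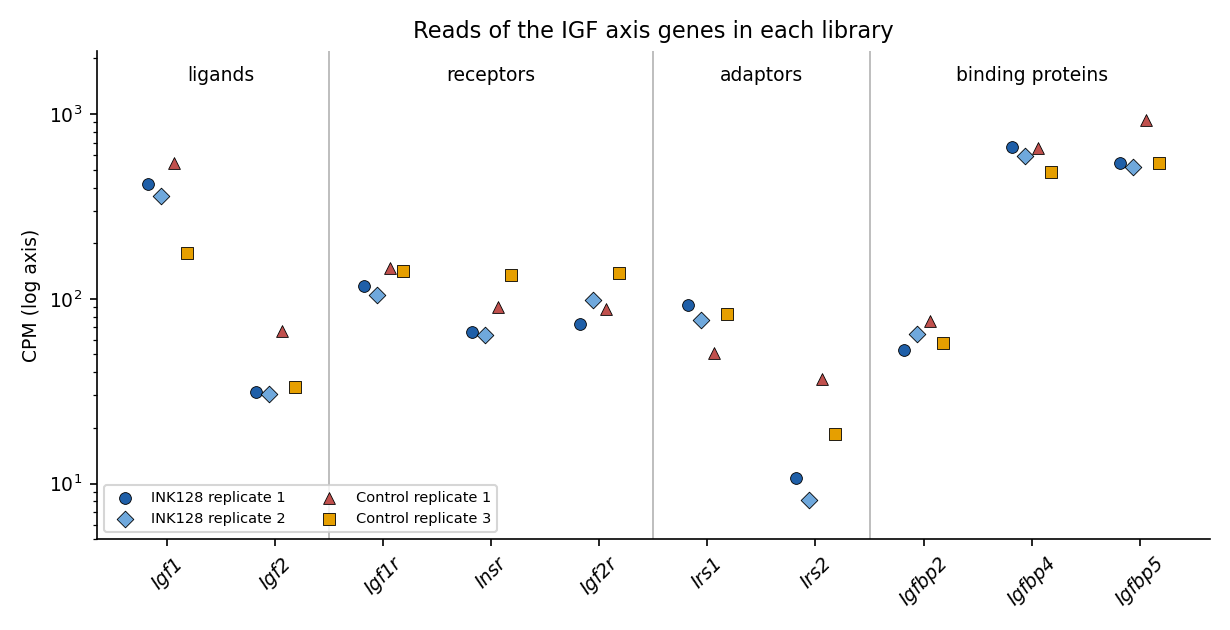
CPM of the 10 IGF axis genes (log axis) in each of the 4 libraries, grouped by role, with 1 point per library and no error bars. Both INK128 libraries lie below both controls for Irs2, Insr, Igf1r, Igf2 and, narrowly, Igfbp5, and the 2 controls (triangle and square) are far apart for Igf1, Igf2 and Irs2.

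Of the adaptors, Irs2 is the one through which insulin and IGF act in the maintenance of beta cells and in female fertility of mice, and Irs1 the main carrier of IGF1R signals in body growth. Irs2 (chromosome 8, 10984681 to 11008458) was counted at 10.7 CPM in INK128 replicate 1, 8.17 CPM in INK128 replicate 2, and at 37.0 and 18.5 CPM in control replicates 1 and 3. Both INK128 libraries were below both controls, and control replicate 1 was the higher control. Its log2 fold change was −1.56 (SE 0.43, 95% interval −2.69 to −0.43, adjusted p = 0.0805, edgeR), and 5.4% of tested genes had a lower one. DESeq2 gave −1.56 with an adjusted p of 0.0105. Without control replicate 1 the log2 fold change was −0.98 (adjusted p = 0.014, edgeR) and without control replicate 3 it was −1.97 (adjusted p = 0.000139, edgeR), where the spread comes from the 2 INK128 libraries alone and a lone control is assumed to vary like them. Irs2 was lower in INK128 libraries under each alternative run, with log2 fold changes from −1.97 to −0.98.

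Irs1 (chromosome 1, 82233101 to 82291416) was counted at 93.0 and 76.9 CPM with INK128 and at 51.2 and 83.0 CPM in control replicates 1 and 3. The groups overlapped, with control replicate 3 between the INK128 libraries, and the log2 fold change was 0.34 (95% interval −0.43 to 1.11, adjusted p = 0.432, edgeR). It was 0.032 without control replicate 1 (adjusted p = 0.901, edgeR), 0.73 and called higher without control replicate 3 (adjusted p = 0.0112, edgeR), and 0.75 with exon length offsets (adjusted p = 0.166, edgeR). Per length, Irs1 exceeded Irs2 6.01-fold and 6.5-fold in INK128 replicates 1 and 2, 3.1-fold in control replicate 3, and stood at 0.957 of it in control replicate 1. This ratio within a library does not depend on how libraries are scaled, and it was higher in both INK128 libraries than in both controls. Irs1 shares 30.9% of its exon bases with Gm9747 on the opposite strand, a gene counted at 88.6 and 70.6 CPM with INK128 and 29.6 and 34.0 CPM in controls (log2 fold change 1.32, adjusted p = 0.0464, edgeR), and since a strand setting was not given in the sources used here, reads of the shared part cannot be told apart. Irs2 shares 2.6% of its exon bases with 9530052E02Rik, which had 1, 1, 23 and 28 reads in the 4 libraries.

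Of the receptors, Insr encodes the insulin receptor, whose short isoform also binds IGF2. Insr (chromosome 8, 3122061 to 3279617) was counted at 66.3 and 63.8 CPM with INK128 and at 90.8 and 135 CPM in control replicates 1 and 3. Both INK128 libraries were below both controls and within 1.04-fold of each other. The log2 fold change was −0.79 (SE 0.24, 95% interval −1.44 to −0.15, adjusted p = 0.0974, edgeR) and DESeq2 gave −0.80 (adjusted p = 0.0362). It was −1.05 without control replicate 1 (adjusted p = 0.000625, edgeR) and −0.48 without control replicate 3 (adjusted p = 0.0429, edgeR, but less than 1.5-fold). With offsets that remove each library's trend with exon length, it was −0.18 (adjusted p = 0.614, edgeR). The exons of Insr span 13746 bases, against a median of 4468 bases for tested genes.

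Igf1r encodes the main signalling receptor of both ligands. Igf1r (chromosome 7, 67952827 to 68233668) was counted at 117 and 105 CPM with INK128 and 146 and 142 CPM in controls. The groups did not overlap, the controls were within 1.03-fold, and the difference was small, with a log2 fold change of −0.37 (95% interval −0.81 to 0.06, adjusted p = 0.178, edgeR). With the exon length offsets its sign turned to 0.32 (adjusted p = 0.31, edgeR), and at 16791 bases its exons were the longest of the members.

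Igf2r encodes the receptor that carries IGF2 to lysosomes and so removes it. Igf2r (chromosome 17, 12682406 to 12769664) was counted at 73.4 and 99.0 CPM with INK128 and at 87.7 and 139 CPM in controls. The groups overlapped, and the log2 fold change was −0.39 (95% interval −1.19 to 0.40, adjusted p = 0.384, edgeR). It moved to −0.69 without control replicate 1 (adjusted p = 0.0174, edgeR), to −0.024 without control replicate 3 and to 0.036 with the exon length offsets. All 3 receptors had a negative log2 fold change without these offsets. With them Igf1r (0.32) and Igf2r (0.036) were positive and Insr was −0.18. The summed level of the 3 receptors per length was 19.7 and 21.5 RPKM (CPM per kilobase of exon) with INK128 against 24.7 and 33.1 RPKM in controls. This sum does not correct for a length trend that differs between libraries.

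Of the ligands, Igf1 (chromosome 10, 87858265 to 87937042) was counted at 416 and 360 CPM with INK128, at 545 CPM in control replicate 1 and at 176 CPM in control replicate 3. Both INK128 libraries lay between the controls. The log2 fold change was 0.10, with an interval that spans both directions widely (−1.35 to 1.56, adjusted p = 0.901, edgeR). It was 1.14 without control replicate 1 (adjusted p = 0.00135, edgeR) and −0.49 without control replicate 3 (adjusted p = 0.0614, edgeR), so the direction of Igf1 was set by which control was used. Control replicate 3, where Igf1 was lowest, was the library with 30.7 summed CPM of oocyte markers. Whether this has a part in the Igf1 level was not tested.

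Igf2, the fetal growth factor expressed from the paternal allele, lies on chromosome 7 from 142650766 to 142666816. It was counted at 31.3 and 30.4 CPM with INK128 and at 67.4 and 33.4 CPM in control replicates 1 and 3. Both INK128 libraries were below both controls, but control replicate 3 was only slightly above them. The log2 fold change was −0.71 (95% interval −1.70 to 0.28, adjusted p = 0.237, edgeR). It was −1.13 without control replicate 3 (adjusted p = 0.000574, edgeR) and −0.12 without control replicate 1 (adjusted p = 0.656, edgeR). Igf2 shares 62.8% of its exon bases with the annotated gene Gm49394 on the same strand, whose counts were 97.3% to 101% of those of Igf2 in the 4 libraries, so that the 2 symbols cannot be taken as separate measurements. Per length, Igf1 exceeded Igf2 7.68-fold and 6.85-fold with INK128 and 4.68-fold and 3.05-fold in controls.

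Of the binding proteins, Igfbp4 encodes an inhibitor of IGF action that the protease PAPP-A cleaves in growing follicles. Igfbp4 (chromosome 11, 99041244 to 99054392) was counted at 667 and 596 CPM with INK128 and 651 and 486 CPM in controls. The groups overlapped, with a log2 fold change of 0.15 (95% interval −0.44 to 0.74, adjusted p = 0.644, edgeR).

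Igfbp5, which binds both IGFs and the extracellular matrix (chromosome 1, 72857932 to 72874884), was counted at 543 and 517 CPM with INK128 and at 931 and 545 CPM in control replicates 1 and 3. Control replicate 1 alone stood apart, and control replicate 3 was level with the INK128 libraries. The log2 fold change was −0.48 (95% interval −1.28 to 0.33, adjusted p = 0.31, edgeR), −0.81 without control replicate 3 (adjusted p = 0.00595, edgeR) and −0.041 without control replicate 1.

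Igfbp2, whose product also binds IGF2 preferentially, lies beside Igfbp5 on chromosome 1 (72824503 to 72852474). It was counted at 53.2 and 64.7 CPM with INK128 and at 76.1 and 57.7 CPM in controls. The groups overlapped, with a log2 fold change of −0.18 (95% interval −0.78 to 0.42, adjusted p = 0.581, edgeR). With the exon length offsets it was −0.73 (adjusted p = 0.12, edgeR), and at 1847 bases its exons were the shortest of the members.

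**Figure D2:**
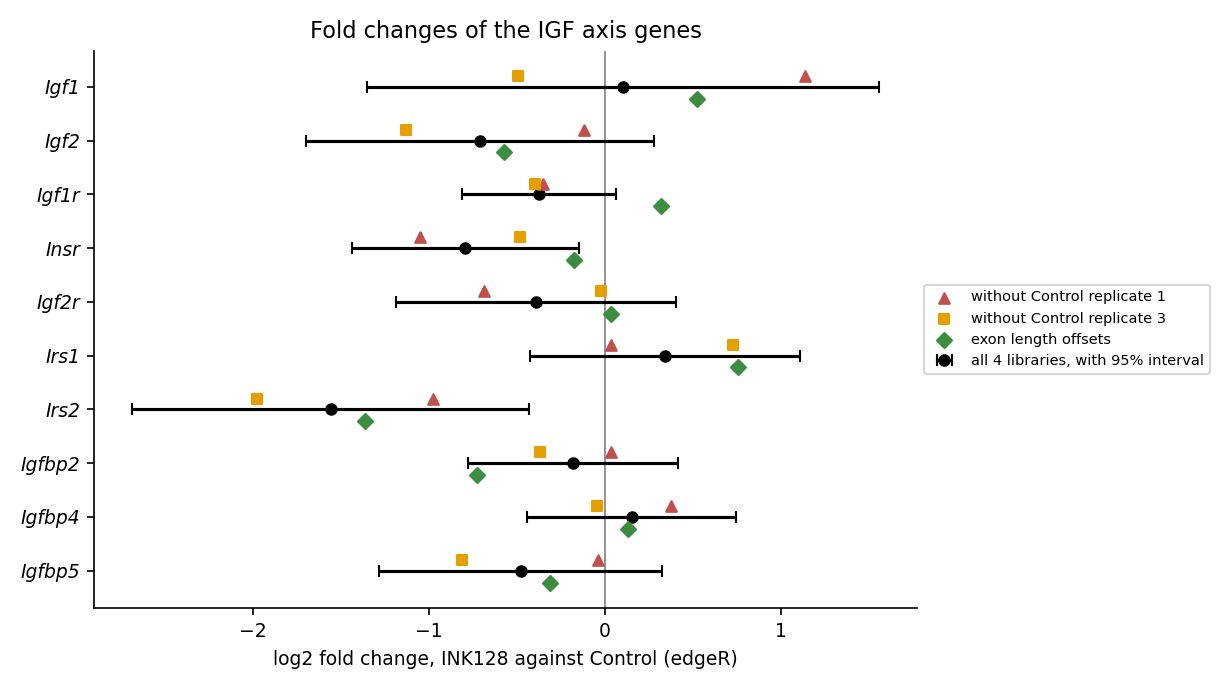
Log2 fold changes (INK128 against control, edgeR) of the 10 IGF axis genes, with the 95% interval from all 4 libraries (black) and the values without control replicate 1 (triangles), without control replicate 3 (squares) and with exon length offsets (diamonds). Only the intervals of Irs2 (−2.69 to −0.43) and Insr (−1.44 to −0.15) exclude 0, and the value of Igf1 moves from −0.49 to 1.14 with the control that is left out.

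Across the members, 7 had a negative and 3 a positive log2 fold change, with a median of −0.38, beside −0.03 over all 11758 tested genes. In 5 of the 10 both INK128 libraries were below both controls, against 34% of tested genes, and in 0 were they above, against 34.5%, so that 5 of 10 stood apart on either side, against 68.5%. Igfbp5 was counted among the 5 by a margin between 543 and 545 CPM. With the exon length offsets the median of the members was −0.07 and 5 were negative. The 2 controls lay further apart than the groups did for 7 of the 10 members, and for 9 the INK128 libraries lay closer together than the controls.

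The members fell into tiers of level per length. Averaged over the 4 libraries, Igfbp4 was at 136 RPKM and Igfbp5 at 106 RPKM, Igf1 at 37.8 RPKM and Igfbp2 at 34.1 RPKM, and Igf2r at 10.7 RPKM, Irs1 at 8.31 RPKM, Igf1r at 7.59 RPKM, Igf2 at 7.10 RPKM, Insr at 6.47 RPKM and Irs2 at 2.94 RPKM. The ranges over libraries of neighbours in this order overlapped, except between Igfbp5 and Igf1 and between Igfbp2 and Igf2r. Igfbp4 stood above 96.6% of tested genes and Irs2 above 10.4%. With INK128 Irs2 was at 1.49 ± 0.282 RPKM (SD, n = 2) and in controls at 4.39 ± 2.07 RPKM (SD, n = 2). Length was the union of annotated exons.

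**Figure D3:**
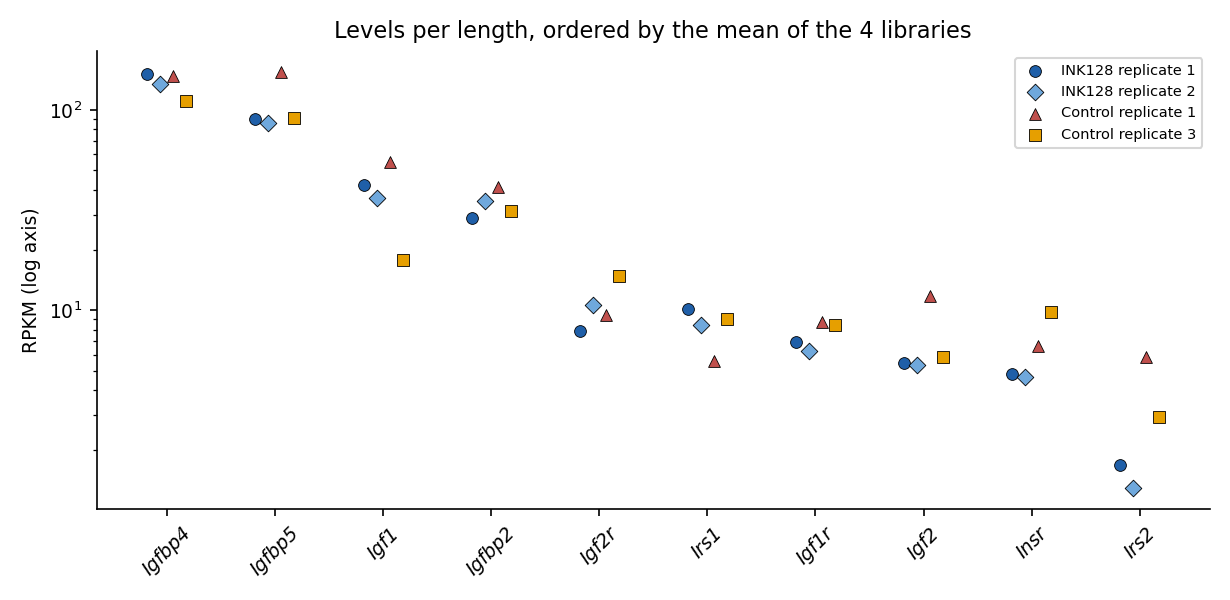
RPKM of the 10 IGF axis genes (log axis) in each library, ordered by the mean of the 4 libraries. Igfbp4 and Igfbp5 lead, Igf1 and Igfbp2 follow, and Irs2 is lowest in the INK128 libraries (1.69 and 1.29 RPKM).

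The members did not share 1 pattern over the libraries. By the distance of centred log2 CPM over the 4 libraries, Igf2 and Igfbp5 were nearest to each other (0.248), both being high in control replicate 1 only. Igf2r and Insr were each other's nearest (0.524), both being highest in control replicate 3. In 7 members control replicate 1 exceeded control replicate 3, and in Igf2r, Insr and Irs1 the order was the opposite. Among all tested genes the nearest to Irs2 were Bend4 (0.0416), Kdm7a (0.118) and Sh3tc2 (0.147), the nearest to Igf1 were Kazald1 (0.0496), Pkd2l2 (0.104) and Gm16048 (0.126), and the nearest to Igf2 were Gm49394 (0.0439), Btg3 (0.0467) and Ssh1 (0.0718). With 4 points, many genes lie this near to any pattern.

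In the wider pathway, 45 further genes were listed and 32 of them tested. Of these, 2 were called lower by edgeR, the binding protein gene Igfbp3 and the Ras exchange factor gene Sos2, against 3.19% of tested genes called lower, and 0 were called higher, against 3.18%. DESeq2 called 10 lower and 1 higher, against 15.1% of tested genes lower and 13.6% higher. The median log2 fold change of the 32 was −0.30. Both edgeR calls lay close to the threshold and ended with limma voom (Igfbp3 −1.99, Sos2 −1.26), with a mean CPM above 1 as the filter, with exon length or GC offsets, and without either INK128 library. Without control replicate 1, 15 were called lower and 3 higher, against 23.2% and 22.7% of tested genes, and without control replicate 3, 11 lower and 6 higher, against 21.4% and 21.2%.

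Among the other binding proteins, Igfbp3, whose product carries most circulating IGF in a complex with the acid-labile subunit, was counted at 68.7 and 72.6 CPM with INK128 and at 391 and 202 CPM in control replicates 1 and 3. It fell by 2.07 on the log2 scale (SE 0.37, adjusted p = 0.0495, edgeR), and the controls held 4.2-fold more on average. It was −1.52 without control replicate 1 and −2.47 without control replicate 3. Igfbp7, a low-affinity relative found around blood vessels, was counted at 1355 and 1390 CPM against 608 and 753 CPM (log2 fold change 1.01, adjusted p = 0.0523, edgeR), and DESeq2 called it higher (adjusted p = 6.9e-05). With exon length offsets Igfbp7 was at 0.30 (adjusted p = 0.436, edgeR), and without control replicate 1 or 3 it was called higher at 0.87 and 1.17. Igfbp6, which prefers IGF2, was counted at 426 and 352 CPM with INK128 and at 348 and 166 CPM in controls (log2 fold change 0.60, adjusted p = 0.326, edgeR, with −0.12 under exon length offsets, 1.23, called higher, without control replicate 1 and 0.16 without control replicate 3). Igfals, which encodes the acid-labile subunit, was counted at 0.827 to 2.47 CPM, and Igfbp1 and Igfbpl1 did not reach a mean CPM of 1. Per length, Igfbp3 made up 1.22% and 1.33% of the summed Igfbp1 to Igfbp7 level with INK128 and 9.73% and 6.03% in controls, and Igfbp7 62.4% and 65.9% against 39.1% and 58.2%. The summed Igfbp1 to Igfbp7 level was 1796 and 1746 RPKM with INK128 against 1285 and 1069 RPKM in controls.

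Among the proteases and their inhibitors, Pappa encodes PAPP-A, which frees IGFs from IGFBP4. Pappa was counted at 21.3 and 22.1 CPM with INK128 and at 37.0 and 71.5 CPM in controls, with both INK128 libraries below both controls (log2 fold change −1.32, adjusted p = 0.0809, edgeR), and DESeq2 called it lower (adjusted p = 0.0115). Without control replicate 1 Pappa was called lower at −1.72, and without control replicate 3 at −0.77, and with exon length offsets it was −0.80 (adjusted p = 0.208, edgeR). Its relative Pappa2 was counted at 0.717 to 1.73 CPM. Stc1, which encodes an inhibitor of PAPP-A, was counted at 4.14 and 40.4 CPM in control replicates 1 and 3, with the INK128 libraries between them. Its log2 fold change was 0.12 (adjusted p = 0.938, edgeR), with −0.73 without control replicate 1 and 2.55 without control replicate 3. Htra1, a serine protease that can cleave binding proteins, was at 489 and 494 CPM against 439 and 399 CPM (log2 fold change 0.23, adjusted p = 0.374, edgeR, with −0.060 under exon length offsets).

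H19, the maternally expressed RNA that neighbours Igf2, was counted at 11.9 and 10.4 CPM with INK128 and at 18.6 and 34.6 CPM in control replicates 1 and 3 (log2 fold change −1.25, adjusted p = 0.0959, edgeR), and DESeq2 called it lower (adjusted p = 0.0297). Without control replicate 1 H19 was called lower at −1.63, and without control replicate 3 at −0.74. Control replicate 3 was the higher control for H19 and the lower one for Igf2. Of the genes for Igf2 mRNA-binding proteins, Igf2bp2 was at 49.0 and 47.0 CPM against 41.1 and 21.2 CPM (log2 fold change 0.62, adjusted p = 0.27, edgeR, with 1.18, called higher, without control replicate 1 and 0.22 without control replicate 3), Igf2bp3 was at 1.47 to 7.82 CPM, and Igf2bp1 did not reach a mean CPM of 1.

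Among hormone receptors, Ghr, the growth hormone receptor gene, overlapped between groups (38.6 and 35.0 CPM with INK128, 30.1 and 73.3 CPM in controls). The log2 fold change of Ghr was −0.49 (adjusted p = 0.464, edgeR), and DESeq2 did not call it. It was −0.996 without control replicate 1 and 0.29 without control replicate 3. Insrr, the gene of an insulin receptor relative that senses alkaline pH and is known from kidney, had 9 and 4 reads with INK128 and 98 and 85 in controls (log2 fold change −3.51, adjusted p = 0.0615, edgeR, from a second test that lowered the filter to a mean CPM of 1). In that second test of 17631 genes 0 were called. The insulin genes Ins1 and Ins2 did not reach a mean CPM of 1.

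Among the other adaptors, Sos2 was counted at 28.8 and 26.3 CPM with INK128 and at 72.6 and 59.5 CPM in controls. It fell by 1.26 on the log2 scale (SE 0.20, adjusted p = 0.0464, edgeR). Its partner in activating Ras, Sos1, was at 37.6 and 32.9 CPM against 87.9 and 65.5 CPM (log2 fold change −1.12, adjusted p = 0.0528, edgeR), and Ptpn1, which encodes a phosphatase of the insulin receptor, was at 60.3 and 53.5 CPM against 92.2 and 98.2 CPM (log2 fold change −0.74, adjusted p = 0.0611, edgeR). DESeq2 called both lower. Without control replicate 1 or 3, Sos2 (−1.11 and −1.40), Sos1 (−0.89 and −1.32) and Ptpn1 (−0.79 and −0.70) were each called lower, and with exon length offsets Sos1 was −0.65 (adjusted p = 0.185, edgeR). Of the 13 adaptors and regulators tested, 9 had a negative log2 fold change, beside 6038 of the 11758 tested genes.

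Downstream of the receptors, 8 of 9 tested genes had a negative log2 fold change, beside 6038 of all 11758, and 0 were called by edgeR, with 5 at an unadjusted p below 0.05, against 36.4% of tested genes. Pdpk1, the gene of the kinase that activates Akt, was at 34.4 and 23.1 CPM with INK128 against 50.2 and 70.6 CPM in controls (log2 fold change −1.07, adjusted p = 0.0836, edgeR). DESeq2 called 4 of the 9 lower, Pdpk1 and Foxo1 among them, against 15.1% of tested genes. The log2 fold change of Foxo1 was −0.68 (adjusted p = 0.0885, edgeR), and −0.29 with exon length offsets (adjusted p = 0.353, edgeR). With the same offsets Akt2 turned from −0.17 to 0.10. Without control replicate 1 or 3 Pdpk1 was called lower, at −1.30 and −0.81, and with exon length offsets it was −0.57 (adjusted p = 0.255, edgeR). Akt1 was at 260 and 246 CPM against 239 and 234 CPM (log2 fold change 0.10, adjusted p = 0.695, edgeR, with −0.038 under library totals and −0.21 under GC offsets). Foxo6 was at 5.07 to 17.7 CPM.

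**Figure D4:**
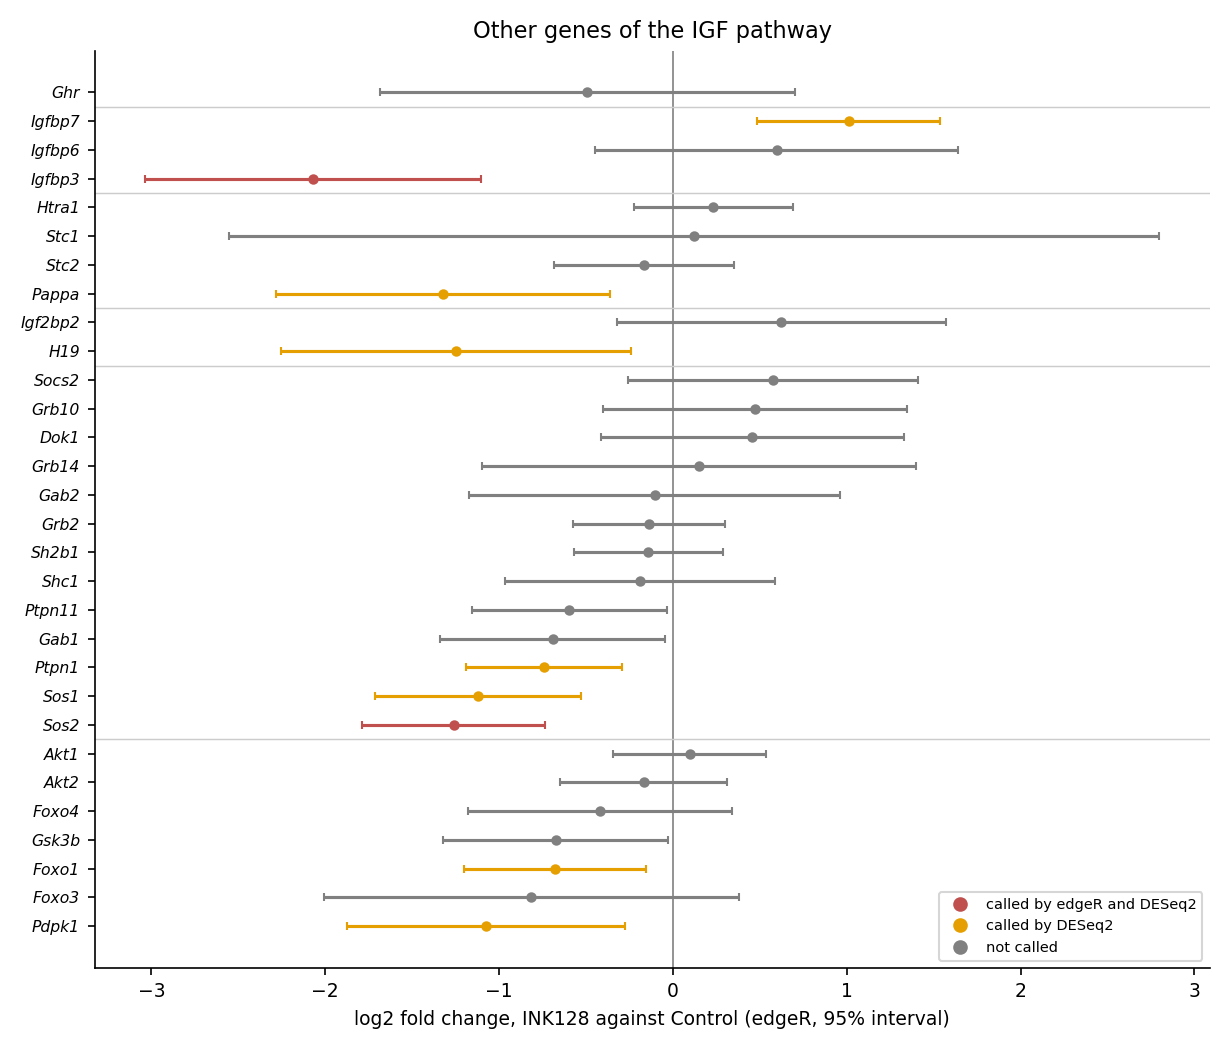
Log2 fold changes (INK128 against control, edgeR, with 95% intervals) of 30 of the 32 tested genes of the wider IGF pathway, with lines between the sublists from hormone receptor at the top to downstream genes at the bottom. Igfbp3 and Sos2 (red) were called by edgeR and DESeq2, and the genes in orange by DESeq2 only. The other 2 genes are not reported here, and the counts in the text cover all 32.

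Several cell type markers differed between the same libraries. Of 15 kidney markers, 13 were lower in both INK128 libraries than in both controls, against 34% of tested genes, with a sum of 130 and 229 CPM against 807 and 1773 CPM. Of 11 immune cell markers 8 were lower (202 and 199 CPM against 339 and 534 CPM), and of 4 markers of the ovarian surface and mesothelium all 4 were (2.65 and 6.90 CPM against 51.7 and 51.1 CPM), while 4 of 4 smooth muscle markers were higher, against 34.5% of tested genes (4743 and 4755 CPM against 669 and 1415 CPM). Higher in both INK128 libraries were also 9 of 12 oocyte markers and 4 of 6 fibroblast markers. The oocyte sum of control replicate 1 (929 CPM) lay near that of INK128 replicate 2 (1000 CPM). Control replicate 3 stood apart from both, at 30.7 CPM. Granulosa cell markers, with 4 of 9 higher and 5 overlapping, lay nearer the 34.5% of tested genes. Their median log2 fold change was 0.20. Of the tested markers of these lists, edgeR called 0. No marker of any list was at 0 in all 4 libraries. Insr, like the kidney sum, was higher in control replicate 3 than in control replicate 1, whereas Irs2 and Igfbp3 were higher in control replicate 1. The 6 fibroblast markers, cells in which Igfbp4 and Igfbp5 are commonly expressed, summed to 11667 and 10252 CPM with INK128 and to 8685 and 8268 CPM in controls. The part of these markers in the IGF axis differences was not tested.

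**Figure D5:**
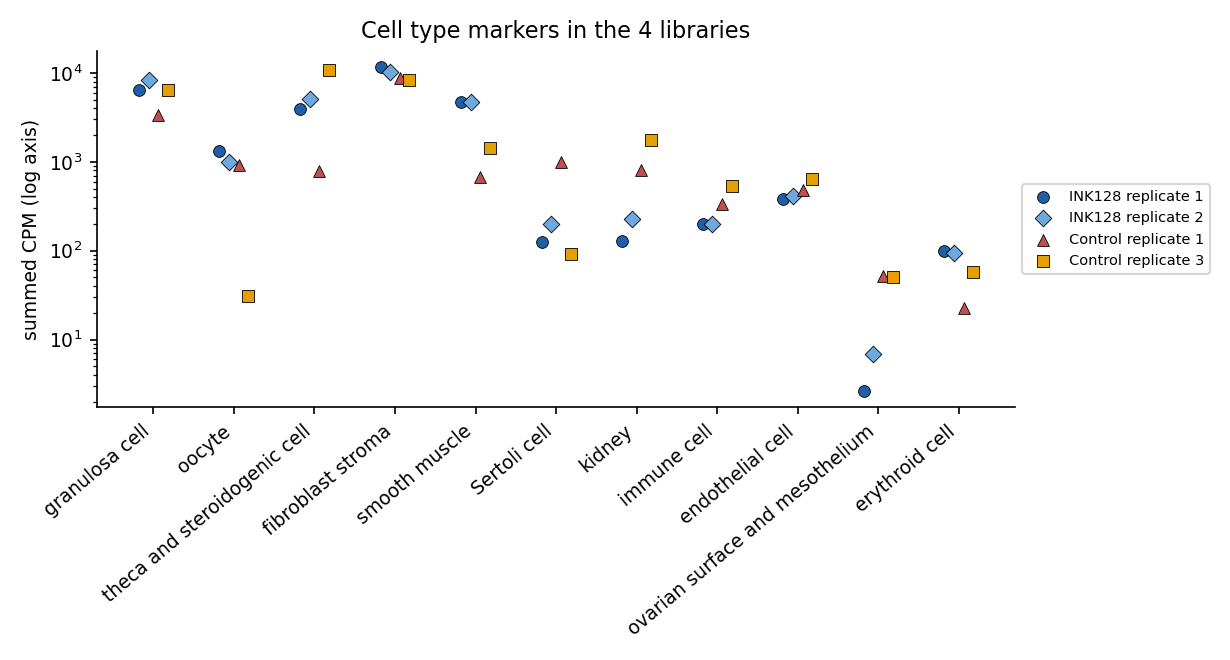
Summed CPM (log axis) of 11 lists of cell type markers in the 4 libraries, with 1 point per library. Kidney, immune and surface markers are higher in both controls, smooth muscle markers in both INK128 libraries, oocyte markers are lowest in control replicate 3 (30.7 CPM) and Sertoli markers highest in control replicate 1 (1003 CPM).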

How the data were processed

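RNA-seq of 4 rOvary libraries was analysed. Per the labels and methods, the authors trimmed with Trimmomatic, mapped with HISAT2 (mm10) and assigned reads to genes with featureCounts. The values the authors deposited are raw counts, not normalized, by gene symbol, and columns were matched to libraries by title. Tool versions and the strand setting are not given in the sources used here.

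The filter kept 11758 genes whose mean CPM exceeded 10. They were tested with edgeR 4.0.16 in R 4.3.3 (TMM, quasi-likelihood F-test, Benjamini-Hochberg adjustment over all tested genes), with the thresholds of the study (adjusted p below 0.05, more than 1.5-fold). The study used DESeq2, run here as an alternative (1.42.0), as was limma 3.58.1 (voom). Other alternatives changed the normalization, the filter, length or GC offsets, or left out 1 library. Listed genes under the filter were tested in a second fit of 17631 genes (mean CPM over 1). Standard errors came from the F statistic. Exon lengths, GC content, positions and overlaps were from GENCODE M21 (GRCm38), with lengths for 99.5% of tested genes. A floor of 3 counts is 0.13 to 0.165 CPM and covers counting error only. An exact permutation test of 2 against 2 cannot give a two-sided p below 0.333, so p-values come from models across all genes. The fits were tested on simulated data.

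Named were all 10 members, called genes of the wider list, up to 3 genes per sublist with the largest fold change, and the nearest genes by pattern. Other genes of the lists were named after their values were seen, and some listed genes are not reported here. The members and lists were chosen with earlier results of these data known.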

Additional observations from a re-analysis of the deposited data

How the results depend on the processing

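No paired analysis was possible because the labels name no pairs of INK128 and control libraries. DESeq2 called 2 members lower, 1 wider pathway gene higher and 10 lower, and 1595 genes higher and 1772 lower over all tested genes, against 374 and 375 with edgeR. With at least 1 count as the filter, 31483 genes were tested, among them 45 wider genes. Of these, 1 member (Irs2) was called lower, 1 wider gene higher and 7 lower, and 1152 genes higher and 1953 lower over all. With CPM above 10 in all 4 libraries, a filter that leaves out Irs2, 10040 genes were tested, among them 9 members and 29 wider genes. Of these, 0 members were called, 1 wider gene was called higher and 4 lower, and 803 genes higher and 717 lower over all. With upper quartile factors 1 wider gene was called higher and 567 genes over all. With library totals 627 genes were called lower over all and the median log2 fold change of all tested genes moved by −0.134. With limma voom, a mean CPM above 1, exon length offsets or GC offsets, 0 genes were called over all.

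Leaving out 1 library, the members called ranged from 0 to 1 higher and 0 to 3 lower, wider genes from 0 to 6 higher and 0 to 15 lower, and all genes from 0 to 2664 higher and 0 to 2723 lower. The zeros came without either INK128 library, and the calls without either control, where the spread rests on the 2 INK128 libraries alone. The log2 fold change turned sign for Igf1 (−0.031 with library totals, and from −0.49 to 1.14 with 1 library left out, negative without INK128 replicate 1 and without control replicate 3), Igf1r (0.32) and Igf2r (0.036) with exon length offsets, Igfbp2 (from −0.37 to 0.033 with 1 library left out, positive without control replicate 1) and Igfbp4 (−0.046 with GC offsets, and from −0.044 without control replicate 3 to 0.38). Irs1 was called higher without control replicate 3 (0.73, adjusted p = 0.0112, edgeR). Of 149 alternative values of the members, 130 kept their direction and side of the threshold. The cause of the changes was not tested.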
